A study of Arabidopsis thaliana with 15 samples.

Results

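Aquaporins are channel proteins that let water, and in some cases small uncharged solutes, pass through membranes along a gradient. In plants they fall into several subfamilies. PIPs sit mainly in the plasma membrane, TIPs mainly in the tonoplast, which is the membrane of the vacuole, NIPs resemble nodulin 26 of legumes and carry solutes such as boric acid, and SIPs are small basic proteins of the endoplasmic reticulum. In growing tissue PIPs and TIPs together set how fast water moves between cells and into the vacuole. The genes described here are 33 aquaporin loci of Arabidopsis thaliana, taken by locus identifier from the 33201 genes of the authors' comparison: 13 PIP, 10 TIP, 7 NIP and 3 SIP genes. All 33 were found in it, all are protein-coding genes in RefSeq, and 29 of them were among the 19868 genes that the authors tested. The 4 untested members were GAMMA-TIP3 (TIP1;3), BETA-TIP (TIP3;2), TIP5;1 and NIP7;1.

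RNA came from whole seedlings 14 days old, raised on plates with 16 h of light and 8 h of dark. The groups compared were Col-0 wild type (WT, 3 libraries) and syd-5 in the Col-0 background (3 libraries), mutated in the gene SPLAYED (SYD) for a SWI/SNF chromatin remodelling ATPase. The series' other 9 libraries, from chromatin immunoprecipitation of tagged SYD and of H3K27me3 with their inputs, were not analysed here. For RNA the mutant is represented by this 1 allele. The comparison holds 1 value per gene and genotype, read as FPKM (fragments per kilobase of transcript, scaled to the size of the library), so that no value per library, no spread and no depth can be given. SYD itself (AT2G28290) stood at 13.1 FPKM in WT against 2.53 FPKM in the mutant, with a listed span that another gene shares. The words rose, fell and called are kept for genes with q of at most 0.05 as given by the authors' deposited table. In whole seedlings, fewer cells of a type and less RNA per cell cannot be told apart.

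Aquaporin transcripts moved in both directions in syd-5. The most abundant tonoplast genes, GAMMA-TIP2 and DELTA-TIP, rose, as did the plasma membrane gene PIP3A. PIP1D, PIP2D, TIP4;1, NIP6;1 and SIP1B fell at least 2-fold. Among the 29 tested members there were 6 that rose, 11 that fell and 12 that were not called. The called share was 58.6%, where 32.1% of all tested genes were called. By direction, 20.7% of the tested members rose, against 14.1% of all tested genes, and 37.9% fell, against 18.0%. The median log2 fold change of the tested members was -0.03, close to the median of -0.02 over all tested genes. Among members averaging 1 FPKM or more it was -0.22, with no such median taken over all tested genes. With values divided by the summed FPKM of the genotype it was -0.16, where all tested genes had -0.15. The called changes spanned log2 -2.48 to 2.33, and the smallest in size was 0.39. The smallest q in the authors' deposited table, 0.000351, was shared by 9 members, of which 3 rose and 6 fell. It is a tie at the smallest p-value of that table, which 2831 of the 19868 tested genes had. Of the 29 tested members 3 rose and 5 fell at least 2-fold, where 3.29% of all tested genes rose and 8.27% fell that far.

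**Figure D1:**
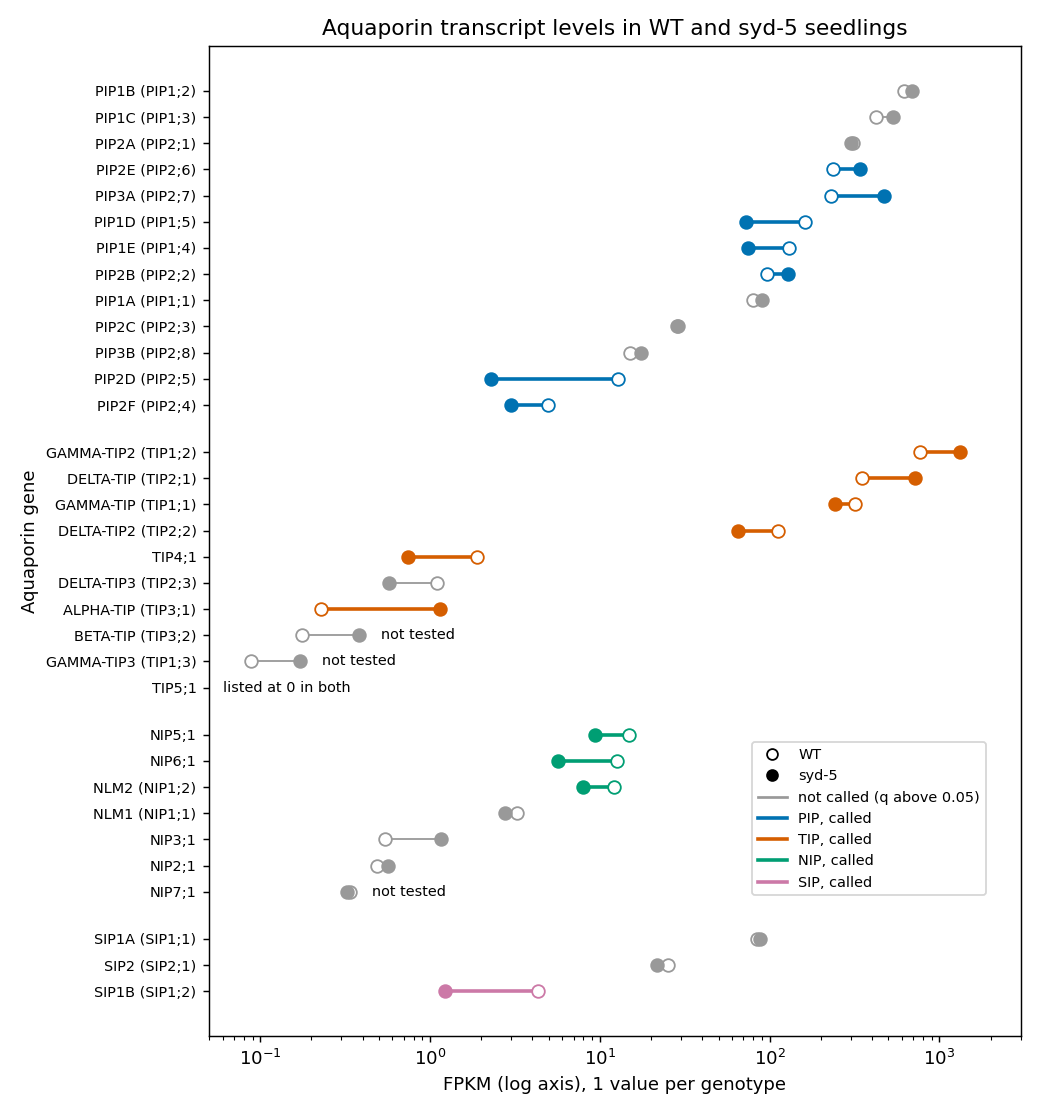
FPKM of each aquaporin gene in WT (open circles) and syd-5 (filled circles) on a log axis, 1 value per genotype, grouped by subfamily and ordered by the WT value. Coloured lines mark called genes and grey ones genes that were not called or not tested. PIP2D has the longest line among called PIP genes, from 12.7 to 2.28 FPKM.

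Rises and falls were also counted by the level of the transcript, without a test between levels. Among the 11 tested members whose 2 values averaged 100 FPKM or more, 5 rose and 3 fell. All tested genes at that level also leaned upwards, with 543 of 1647 (33%) called higher and 220 (13.4%) called lower. Of the 8 members with a mean of 10 to under 100 FPKM none rose, also none at an unadjusted p under 0.05, and 3 fell, where 14.5% of all tested genes at that level rose and 16.0% fell. Of the 10 members under 10 FPKM 1 rose and 5 fell, where 9.99% of all tested genes at that level rose and 21.1% fell. The members' median log2 fold changes in these classes were 0.34, -0.10 and -0.83, and those of all tested genes were 0.19, 0.01 and -0.12. The class limits were chosen after the values were seen.

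**Figure D2:**
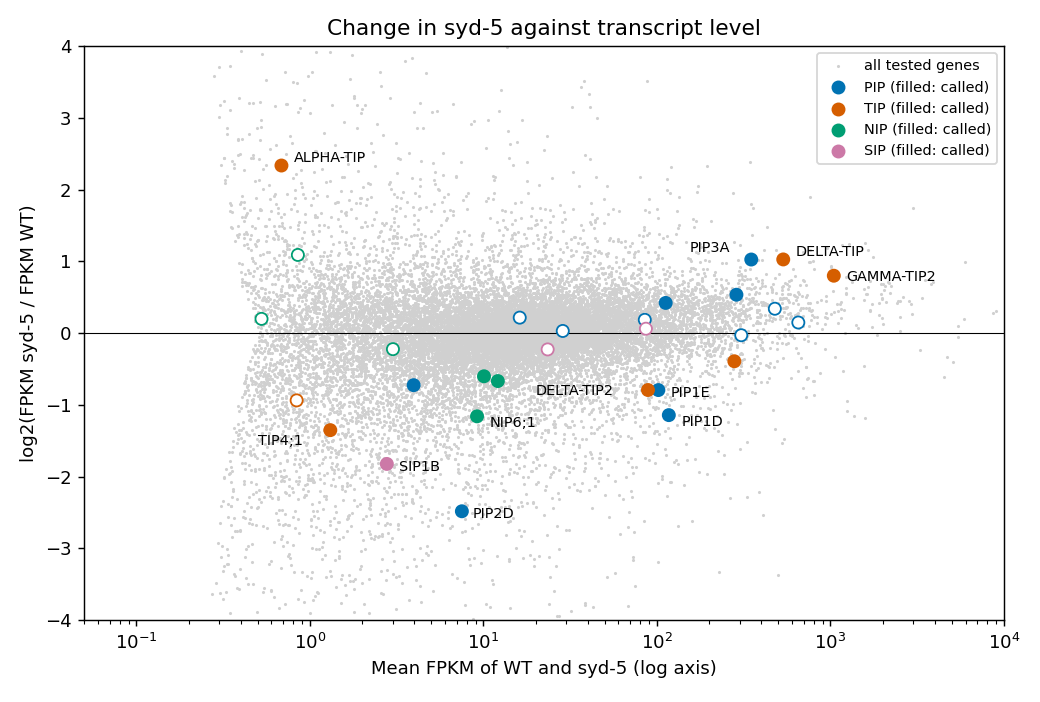
log2 ratio of FPKM in syd-5 over WT (vertical axis) against the mean FPKM of both genotypes (log axis). Grey points are all tested genes with a finite ratio inside the plotted range of log2 -4 to 4 (117 lie outside it), and coloured points are tested aquaporin genes, filled where called. Most members above 100 FPKM lie above 0, and most of those under 10 FPKM lie below 0.

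PIP genes, the channels of the plasma membrane, split into risers and fallers. Of 13 members, all tested, 3 rose (23.1%), 4 fell (30.8%) and 6 were not called. Over all tested genes 14.1% rose and 18.0% fell. The median log2 fold change of the PIP genes was 0.15. Their summed level was 2342 FPKM in WT against 2749 FPKM in the mutant, a log2 ratio of 0.23. Divided by the summed FPKM of all genes in each genotype, the median was 0.016 and the log2 ratio of the sums 0.10. The median over all tested genes was then -0.15. The 5 genes of the PIP1 group, whose proteins usually reach the plasma membrane in complexes with PIP2 proteins, summed to 1411 FPKM in WT against 1458 FPKM in the mutant. The 8 genes of the PIP2 group, which form highly active water channels, summed to 931 FPKM in WT against 1291 FPKM in the mutant.

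Within the PIP1 group 2 of the 5 genes fell and none rose by the authors' q, where 18.0% of all tested genes fell and 14.1% rose. In that group 1 gene, PIP1C, was higher at an unadjusted p under 0.05. PIP1B (PIP1;2, AT2G45960), whose protein is also linked to carbon dioxide passage in leaves, was the most abundant PIP transcript at 619 FPKM in WT against 686 FPKM in the mutant and was not called (q = 0.536 by the authors' deposited table). PIP1C (PIP1;3, AT1G01620) stood at 422 FPKM in WT against 534 FPKM in the mutant (q = 0.0808 by the authors' deposited table), and PIP1A (PIP1;1, AT3G61430) at 79.6 and 90.5 FPKM, neither of them called. PIP1D (PIP1;5, AT4G23400, TAIR10 chromosome 4, 12220743 to 12222371) fell 2.21-fold, from 161 FPKM in WT to 73.0 FPKM in syd-5. The other gene of the group that fell was PIP1E (PIP1;4, AT4G00430, chromosome 4, 185450 to 187627), from 129 to 74.5 FPKM, or 1.73-fold. PIP1E is known to rise in leaves under drought, unlike most PIP genes, and its protein carries hydrogen peroxide in immune responses. The 3 genes of the group that were not called had higher values in syd-5 than in WT, so that the group's sum stayed near its WT value.

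Among the PIP2 genes 3 of the 4 most abundant rose, and the 2 rarest fell. PIP3A (PIP2;7, AT4G35100, chromosome 4, 16708552 to 16710289) rose 2.03-fold, from 230 FPKM in WT to 469 FPKM in syd-5. PIP2E (PIP2;6, AT2G39010) rose 1.45-fold, from 234 to 340 FPKM (q = 0.0015 by the authors' deposited table). PIP2B (PIP2;2, AT2G37170), known for its part in water uptake by roots, rose 1.34-fold, from 96.0 to 128 FPKM (q = 0.0129 by the authors' deposited table). PIP2A (PIP2;1, AT3G53420), the best studied water channel of root and guard cells, had 309 FPKM in WT against 303 FPKM in the mutant (q = 0.91 by the authors' deposited table). PIP3B (PIP2;8, AT2G16850) stood at 15.0 and 17.4 FPKM and was not called.

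The largest fall of any aquaporin gene was that of PIP2D (PIP2;5, AT3G54820, chromosome 3, 20302021 to 20304010). It stood at 12.7 FPKM in WT against 2.28 FPKM in the mutant, a 5.59-fold difference (log2 -2.48). PIP2D is, with PIP1E, the other PIP gene known to rise in leaves under drought. PIP2F (PIP2;4, AT5G60660), a root gene, fell 1.65-fold, from 4.93 to 2.98 FPKM (q = 0.0154 by the authors' deposited table). PIP2B and PIP2C (PIP2;3, AT2G37180, also RD28) lie 2850 bases apart on chromosome 2 and are close copies, so that reads could be split wrongly between them. PIP2C had 28.3 FPKM in WT against 28.9 FPKM in the mutant and was not called. The level of PIP2B was 3.39 times that of PIP2C in WT and 4.44 times in syd-5.

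TIP genes, the channels of the vacuole membrane, were called in 6 of 7 tested members (85.7%), where 32.1% of all tested genes were called. Of the 7 tested members 3 rose, 3 fell and 1, DELTA-TIP3, was not called. Their summed level was 1547 FPKM in WT against 2353 FPKM in the mutant, although the median log2 fold change was -0.39, so that the sum and the median differ in sign. The log2 ratio of the sums was 0.60, or 0.39 without GAMMA-TIP2, and the median was -0.59 without DELTA-TIP, whose span is shared. GAMMA-TIP2 made up 49.3% of the TIP sum in WT and 56.4% in syd-5, and DELTA-TIP 22.7% and 30.4%. Over all aquaporin genes the TIP share of the summed level was 38.2% in WT and 44.9% in syd-5.

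GAMMA-TIP2 (TIP1;2, AT3G26520, chromosome 3, 9722443 to 9723815), a channel of the large vacuole, was the most abundant aquaporin transcript in both genotypes. It rose 1.74-fold, from 763 FPKM in WT to 1327 FPKM in syd-5. Its rank among all listed genes was 109 in WT and 68 in syd-5. Its close relative GAMMA-TIP (TIP1;1, AT2G36830) went the other way, falling 1.31-fold from 317 to 241 FPKM (q = 0.0313 by the authors' deposited table). That call was lost when the p-values were adjusted over every listed gene (q = 0.0523). The level of GAMMA-TIP2 was 2.41 times that of GAMMA-TIP in WT and 5.50 times in syd-5.

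The delta group showed the same kind of split. DELTA-TIP (TIP2;1, AT3G16240, chromosome 3, 5505404 to 5508414), a shoot gene whose protein also carries ammonia, rose 2.04-fold, from 352 to 716 FPKM. Its listed span is shared with another gene, which makes its value less certain. DELTA-TIP2 (TIP2;2, AT4G17340, chromosome 4, 9699253 to 9700410), known mainly from roots, fell 1.73-fold, from 113 FPKM in WT to 64.9 FPKM in syd-5. The level of DELTA-TIP was 3.13 times that of DELTA-TIP2 in WT and 11.03 times in syd-5. DELTA-TIP3 (TIP2;3, AT5G47450), also a root gene, stood at 1.10 and 0.575 FPKM and was not called (q = 0.0883 by the authors' deposited table). TIP4;1 (AT2G25810), another gene known from roots, fell 2.55-fold, from 1.88 to 0.738 FPKM (log2 -1.35, q = 0.00743 by the authors' deposited table). With a pseudocount of 1 FPKM its log2 fold change was -0.73, under 2-fold.

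**Figure D3:**
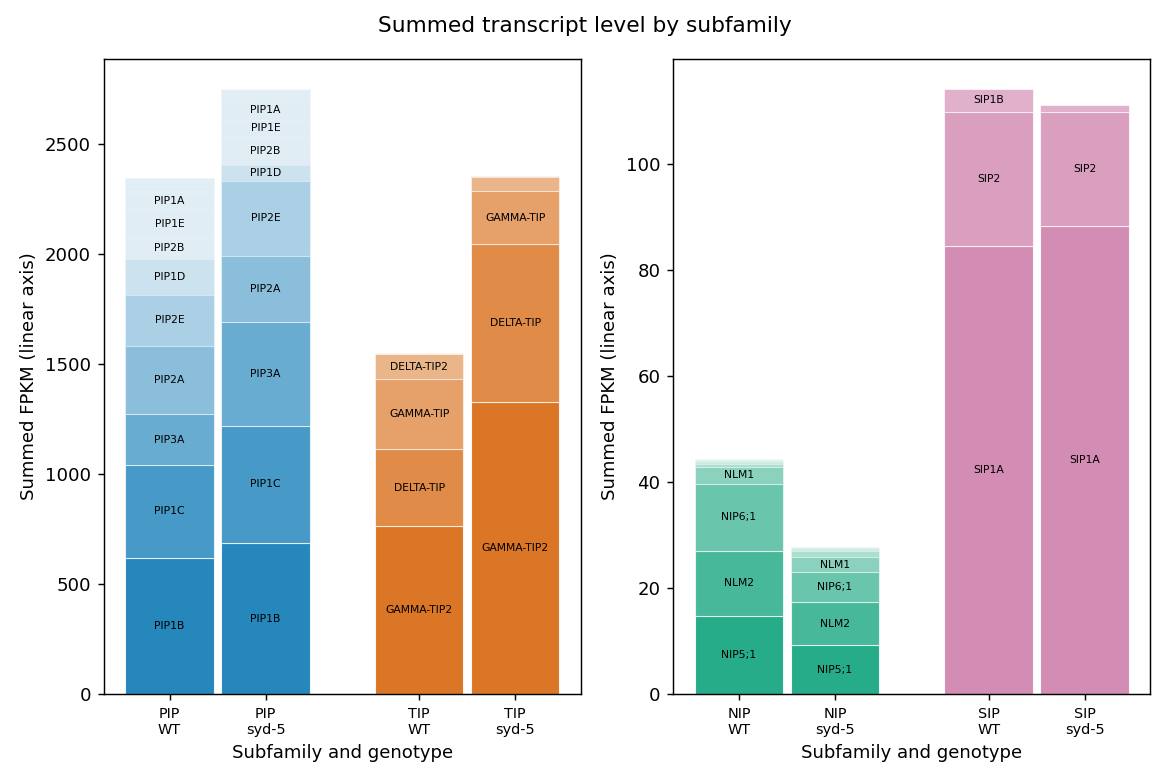
Summed FPKM (linear axes from 0) of the PIP and TIP genes (left) and of the NIP and SIP genes (right) in WT and syd-5. Segments are single genes in the order of their mean FPKM, labelled where wide enough. The TIP column rises from 1547 to 2353 FPKM, and the NIP column falls from 44.3 to 27.9 FPKM.

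The remaining TIP genes are known from seeds and pollen and were near the lower end of the table. ALPHA-TIP (TIP3;1, AT1G73190), a channel of the protein storage vacuoles of seeds, was the only one of them tested, and it was called. It rose 5.04-fold, from 0.227 FPKM in WT to 1.14 FPKM in syd-5 (log2 2.33, q = 0.00704 by the authors' deposited table). With a pseudocount of 1 FPKM its log2 value was 0.81, below those of DELTA-TIP and PIP3A (1.02 each). Its seed partner BETA-TIP stood at 0.175 and 0.381 FPKM and was not tested. Seed markers are given beside it. Of 9 such genes 8 had a higher value in syd-5, their summed level was 1.52 FPKM in WT against 8.69 FPKM in the mutant, and 2 were listed at 0 in WT and none in syd-5. FUS3 was the 1 gene with a lower value, and 5 of the 9 were not tested. Of the 4 that were tested 1 rose, the peroxiredoxin gene PER1 (listed at 0 in WT, 2.34 FPKM in syd-5), where 14.1% of all tested genes rose. OLEO1, OLEO2 and CRA1 were not called, and the part of the seed markers in the rise of ALPHA-TIP was not tested. GAMMA-TIP3, known from pollen, had 0.0884 and 0.171 FPKM, and TIP5;1, also a pollen gene, was listed at 0 in both genotypes. Of 11 pollen and anther markers 4 were listed at 0 in both genotypes, among them A9 and MS1, and their summed level was 3.57 FPKM in WT against 4.01 FPKM in the mutant.

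Of the 6 NIP genes that were tested 3 fell, none rose and 3 were not called. Over all tested genes 18.0% fell and 14.1% rose. The median log2 fold change of the tested NIP genes was -0.41, or -0.63 among those averaging 1 FPKM or more. The summed level of all 7 NIP genes was low, at 44.3 FPKM in WT against 27.9 FPKM in the mutant. NIP6;1 (AT1G80760, chromosome 1, 30348801 to 30352208), which directs boric acid towards young leaves, fell 2.23-fold, from 12.7 to 5.68 FPKM (q = 0.0159 by the authors' deposited table), with a shared span. NIP5;1 (AT4G10380, chromosome 4, 6431236 to 6434822), the boric acid channel of root uptake, fell 1.59-fold, from 14.9 to 9.35 FPKM. NLM2 (NIP1;2, AT4G18910), whose protein has been linked to aluminium tolerance, fell 1.52-fold, from 12.1 to 8.00 FPKM (q = 0.00579 by the authors' deposited table). The 3 genes that fell were the 3 most abundant NIP transcripts in WT.

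The other NIP genes had low values. NLM1 (NIP1;1, AT4G19030), which lies 53143 bases from NLM2 on chromosome 4, had 3.24 FPKM in WT against 2.78 FPKM in the mutant and was not called. NIP3;1 (AT1G31885), known for arsenite uptake in roots, stood at 0.545 and 1.16 FPKM, and its higher value in syd-5 did not pass (q = 0.0782 by the authors' deposited table), although it was the 1 NIP gene higher at an unadjusted p under 0.05. NIP2;1 (AT2G34390), a gene of the response to low oxygen, stood at 0.490 and 0.562 FPKM and shares its span. The anther gene NIP7;1 (AT3G06100) had 0.338 and 0.325 FPKM and was not tested.

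Genes of boron export were set beside the boric acid channels. BOR1, the exporter that loads boron into the xylem, fell 2.50-fold, from 13.3 FPKM in WT to 5.30 FPKM in syd-5 (q = 0.000351 by the authors' deposited table). BOR2 had 10.7 FPKM in each genotype (q = 0.994 by the authors' deposited table), and BOR4 was under 0.1 FPKM and was not tested. NIP5;1, BOR1 and NIP6;1, the last with a shared span, thus all fell, while BOR2 was not called. Among all tested genes the share that fell was 18.0%.

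Of the 3 SIP genes of the endoplasmic reticulum, all tested, 1 was called (33.3%), near the 32.1% of all tested genes. SIP1B (SIP1;2, AT5G18290, chromosome 5, 6055028 to 6058368) fell 3.54-fold, from 4.32 FPKM in WT to 1.22 FPKM in syd-5, with a span that another gene shares. SIP1A (SIP1;1, AT3G04090), at 84.5 and 88.2 FPKM, and SIP2 (SIP2;1, AT3G56950), at 25.3 and 21.6 FPKM with a shared span, were not called. SIP1A carried 74.1% of the SIP sum in WT and 79.4% in syd-5, so that the sum differed little, at 114 FPKM in WT against 111 FPKM in the mutant.

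Proteins that move, modify or degrade PIPs formed another list. Of 13 genes 12 had an entry of their own, and of these, all tested, 1 rose, 2 fell and 9 were not called, with a median log2 fold change of 0.01. Over all tested genes 14.1% rose and 18.0% fell. SYP121, a syntaxin that helps to deliver the PIP3A protein to the plasma membrane, fell 1.67-fold, from 99.1 FPKM in WT to 59.5 FPKM in syd-5. The kinase gene HCR1, which acts on the water conductance of roots, fell 1.38-fold, from 3.26 to 2.37 FPKM (q = 0.0349 by the authors' deposited table), a call lost when p-values were adjusted over every listed gene (q = 0.0583). RMA2, of a family of membrane-anchored ubiquitin ligases, rose 1.54-fold, from 58.8 to 90.6 FPKM. Genes of kinases known to phosphorylate PIP proteins, OST1, BAK1 and SIRK1, were not called. Among 7 proton pump genes, which energise the same membranes, 1 fell, 6 were not called and none rose, also none at an unadjusted p under 0.05. The plasma membrane pump gene AHA2 fell 1.59-fold, from 105.5 to 66.4 FPKM, and its relative AHA1, the most abundant of the pumps in WT, had a lower value that did not pass, at 449 and 338 FPKM (q = 0.059 by the authors' deposited table). The vacuolar pyrophosphatase gene AVP1, at 384 and 458 FPKM, was not called.

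**Figure D4:**
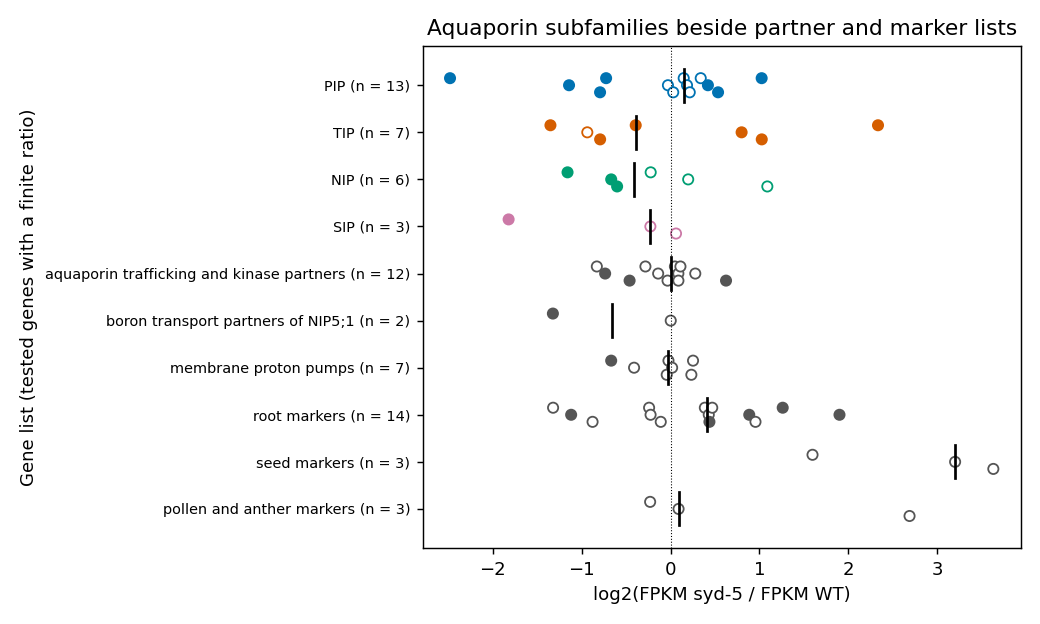
log2 ratio of FPKM in syd-5 over WT for tested genes with a finite ratio, by aquaporin subfamily and by partner and marker list (n in the labels). Filled points are called genes and black bars are medians. The called seed marker PER1, listed at 0 in WT, has no finite ratio and is not shown. The 3 called NIP genes lie below 0, and called PIP and TIP genes lie on both sides.

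Markers of root cells were set beside the members known from roots. Of 20 root markers 14 were tested, of which 4 rose (SHR, CASP2, EXPA18 and PRP3), 1 fell (the phosphate transporter gene PHT1;1) and 9 were not called. Over all tested genes 14.1% rose and 18.0% fell. The median log2 fold change of the tested markers was 0.41. The call of EXPA18 was lost when p-values were adjusted over every listed gene (q = 0.0532). The Casparian strip gene CASP2 rose from 0.946 FPKM in WT to 3.53 FPKM in syd-5, and the root hair gene PRP3 rose from 1.63 to 3.02 FPKM. PHT1;1 fell from 24.3 to 11.2 FPKM. The summed level of the list was 59.8 FPKM in WT against 54.1 FPKM in the mutant, a sum in which PHT1;1 was the largest term in WT. The endodermis gene SCR was at 11.2 and 9.59 FPKM, and the iron transporter gene IRT1 was at 0.0357 FPKM in WT and at an exact 0 in the mutant. Of the members described above as root genes, DELTA-TIP2, TIP4;1, PIP2F and NIP5;1 fell and PIP2B rose, while PIP2A, DELTA-TIP3 and NIP3;1 were not called. The part of root content in these values was not tested.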

How the data were processed

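The authors' deposited table compares RNA of syd-5 (3 libraries) with WT (3 libraries) and gives 1 FPKM value per gene and genotype, a p-value and a q-value. FPKM is read from the layout and the values, since the header does not name the unit. Per the submitters' processing notes, which give no roles, the tools were Bowtie2, bedtools and TopHat2 (version 2.0.4) and the build was TAIR10. Which program wrote the table was not given in the sources used here. Benjamini-Hochberg adjustment of the p-values of all 19868 tested genes returned the authors' q-values to within 5.22e-07. Whether libraries came from separate plants, and how they enter the authors' test, is not given, so that the spread behind the p-values may be technical. The depth of the libraries is unknown.

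The table has no values per library, so that calls rest, as planned for that case, on the authors' q (0.05 or less). Fold changes are ratios of FPKM with no pseudocount. The summed FPKM of all genes was 865406 in WT and 948154 in syd-5, a log2 ratio of 0.13. Dividing by these sums would shift every log2 fold change down by that amount, which turns the sign of no called member and of PIP2C and SIP1A, which were not called. Starts are counted from 1. A span shared with another listed gene (7 members) makes a value less certain. Names are from RefSeq (TAIR10.1), in which all 33 loci matched, except the name TIP3;2 for BETA-TIP, which RefSeq does not give. The calculations used Python 3.11.15 with pandas 2.3.3 and were tested on simulated data. Members and lists were chosen with earlier results of these data known. All 33 members may be named, and of each other list every called gene, or the 4 with the smallest q, with SYD as a check of the label. Other list genes were named after their values were seen.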

Additional observations from a re-analysis of the deposited data

How the results depend on the processing

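Counts of called members were 6 higher and 11 lower. They stayed within 1.5 times of these values when p-values were adjusted over every listed gene, with q of at most 0.01, with members averaging 1 FPKM or more and without shared spans. Asking for at least a 2-fold difference left 3 higher and 5 lower. GAMMA-TIP was the 1 member whose call was lost in the wider adjustment (log2 -0.39, q = 0.0523). Medians of log2 fold changes moved with the scaling by the summed FPKM of each genotype, which by construction takes 0.13 off each, to -0.16 for all members, 0.016 for PIP, -0.52 for TIP, -0.54 for NIP and -0.36 for SIP genes. Under this scaling the median over all tested genes was -0.15. The scaled log2 ratio of sums was 0.10 for PIP, 0.47 for TIP and 0.24 for all aquaporin genes, against 0.23, 0.60 and 0.37 unscaled. Without GAMMA-TIP2 the log2 ratio of sums was 0.39 for TIP and 0.25 for the whole family. Keeping only members averaging 1 FPKM or more, the median was -0.22 for all members and -0.63 for the NIP subfamily. Leaving out shared spans gave a median of 0.00 for all members, -0.59 for TIP and 0.061 for SIP genes, the last from 1 gene. With a pseudocount of 1 FPKM ALPHA-TIP (log2 0.81) and TIP4;1 (-0.73) were the called members whose log2 fold change shrank by more than 1.5 times. No paired analysis was possible because the table gives no value per library, and for the same reason no library could be left out. The unknown depth limits most the members under 1 FPKM.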

Other observations

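NIP4;1 and NIP4;2, which are aquaporin genes but not among the 33 loci, were not tested. NIP4;1 was listed at 0 in both genotypes, and NIP4;2 had 0.0324 FPKM in WT against 0.0628 FPKM in the mutant.

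Genes next to the called members on the chromosome were counted too. The 17 called members had 27 tested nearest neighbours, of which 14 were called (of all tested genes 32.1%, with 14.1% higher and 18.0% lower). Of these 14, 5 went in the member's direction and 9 in the opposite one. TIP4;1 had 1 of each, with AT2G25820 lower in syd-5 (0.623 and 0.0870 FPKM) and AT2G25800 higher (18.7 and 25.0 FPKM). Beside NIP6;1, which fell, both neighbours rose, AT1G80750 from 37.7 to 52.6 FPKM and AT1G80770 from 21.8 to 31.6 FPKM. NIP6;1 shares its span with another listed gene, which makes its value less certain. The neighbours were named after their values were seen.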
